A study of Mus musculus with 12 samples.

Results

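The 10 genes described here, Hamp, Hamp2, Tfrc, Tfr2, Slc40a1, Trf, Fth1, Ftl1, Bmp6 and Id1, form the core of hepatic iron handling and were chosen by name from 55401 genes counted in mouse liver. All 10 passed the filter on low counts, among 13205 genes that did. RNA was sequenced from whole livers of 15-week-old female mice, 6 iTgMir483 and 6 littermate Control animals, with 1 liver per library. iTgMir483 mice carry a Tet-off transgene with an additional Mir483, inserted at Rosa26 and made active by the ubiquitous CMV-Cre, so that the microRNA can be expressed wherever Rosa26 is transcribed and not in hepatocytes alone. Doxycycline, which silences the transgene, was in the drinking water of the pregnant dams and was then withdrawn, leaving Mir483 on from birth. In the cross that the paper describes for making iTgMir483 progeny, the mothers were homozygous for CMV-Cre and the fathers heterozygous for the transgene. The alleles of the Control littermates themselves are not listed in the sources used here.

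Hepcidin, the peptide encoded by Hamp, is made mainly by hepatocytes and lowers plasma iron by binding ferroportin, the iron exporter encoded by Slc40a1, which is then degraded. The liver senses iron through transferrin saturation, read by transferrin receptor 2, and through BMP6 from sinusoidal endothelial cells, whose signal reaches the Hamp promoter through SMAD proteins, while interleukin 6 acts on the same promoter through STAT3. Mice have an additional hepcidin gene, Hamp2, whose peptide is not known to regulate iron in the way that of Hamp does. Ferritin (Fth1, Ftl1), ferroportin and transferrin receptor 1 (Tfrc) are also controlled after transcription, by iron regulatory proteins that bind hairpins in their mRNAs, so their mRNA levels give only one layer of their control.

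The libraries held 12244123 to 30431286 counts in Control and 12415140 to 15846175 counts in iTgMir483 livers. Mir483 itself had 0 counts in every Control library, which allows up to 3 counts in each, and 318 to 761 counts in the iTgMir483 libraries. The hepatocyte genes Alb, Ttr, Apoa1, Hnf4a, Asgr1 and Serpina1a were all well expressed, with Alb, the gene of serum albumin, at 35996 to 135525 CPM, counts brought to a common library total with TMM scaling. In edgeR 0 of these 6 changed between the groups, with 1 at an unadjusted p under 0.05 and 0 changed by DESeq2 or limma-voom.

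The promoters of Hamp and Hamp2 are shown because the genes are neighbouring copies whose differences between the groups had opposite signs. Hamp lies at chr7:30942368-30944032 and Hamp2 at chr7:30922372-30924681, both on the minus strand (GRCm38, GENCODE M21), and each was taken as the 250 bases before the start given by RefSeq (GRCm38.p6), printed 5′ to 3′ on the strand of the gene. Capitals mark the BMP response element core GGCGCC, or the bases aligned with it in Hamp2, and then the STAT site, a match to TTCNNNGAA.
Hamp, chr7:30944030-30944279: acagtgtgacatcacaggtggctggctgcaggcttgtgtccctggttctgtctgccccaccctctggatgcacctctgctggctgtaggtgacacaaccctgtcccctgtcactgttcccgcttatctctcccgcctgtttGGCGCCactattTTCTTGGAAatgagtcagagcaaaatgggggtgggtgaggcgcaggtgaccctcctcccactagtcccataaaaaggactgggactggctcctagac
Hamp2, chr7:30924182-30924431: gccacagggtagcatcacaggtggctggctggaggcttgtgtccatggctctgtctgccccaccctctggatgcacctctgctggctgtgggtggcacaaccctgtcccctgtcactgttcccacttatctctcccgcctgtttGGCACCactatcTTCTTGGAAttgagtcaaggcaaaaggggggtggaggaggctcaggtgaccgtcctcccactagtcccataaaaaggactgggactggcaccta

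Of 247 aligned bases in these 2 windows, 227 (91.9%) were identical. The Hamp2 window lies inside the Hamp2 gene of GENCODE, which starts further upstream, so it need not precede every counted Hamp2 transcript. The STAT site was the same in both, at 97 to 89 bases before the start of Hamp and 94 to 86 bases before that of Hamp2. The BMP core, 109 to 104 bases before the Hamp start, differed in Hamp2 by the substitution G4A, counted from 1 at the first base of the hexamer with the Hamp base first. Searched on both strands, GGCGCC was present in 3149 (9.59%) and TTCNNNGAA in 2306 (7.02%) of 32851 promoter windows of the same length, and the 2 motifs did not overlap in Hamp. Tfrc was the only other member with a match in these windows, a GGCGCC 89 to 84 bases before its first start. RefSeq windows were matched for Hamp, Hamp2, Tfrc, Tfr2, Fth1, Ftl1 and Bmp6, and a match is a string of letters and not a measured binding site.

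Over all tested genes, 1470 (11.1%) changed between iTgMir483 and Control livers, of which 1110 (8.41% of those tested) were higher and 360 (2.73%) lower, where changed means an edgeR quasi-likelihood adjusted p under 0.05 with a fold over 1.5. Of the 10 iron handling genes, 1 (10%) changed, a share near that of all genes, and this gene, Hamp2, was higher. By adjusted p alone the count was again 1 of 10, against 18.6% of all genes, and 1 of 10 had groups that did not overlap, against 7.92%. The median log2 fold change of the members was -0.02, and that of all genes 0.01.

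Hamp, the hepcidin gene proper, had 1247, 898, 1171, 999.7, 936 and 998 CPM in Control livers 1 to 6. In iTgMir483 livers 1 to 6 it had 484, 1184, 462, 795, 588 and 315 CPM. Replicates 1, 3, 4, 5 and 6 of iTgMir483 thus lay below every Control liver, whereas iTgMir483 replicate 2 lay within the Control range. The means were 1041 ± 138 CPM (SD, n = 6) in Control and 638 ± 311 CPM in iTgMir483, a log2 fold change of -0.71 (SE 0.25, 1.63-fold lower) that did not pass the test (adjusted p = 0.0658). One library decided this call, since without iTgMir483 replicate 2 the log2 fold change was -0.98 (adjusted p = 0.00597). The call also depended on the model, with an adjusted p of 0.0227 by DESeq2 (2 of 10 members changed, against 12.3% of all genes) and 0.0371 by limma-voom.

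Hamp2 had 82.4, 107, 61.1, 107, 48.1 and 112 CPM in Control livers 1 to 6. In iTgMir483 livers 1 to 6 the values were 681, 626, 121, 435, 301 and 210 CPM. Every iTgMir483 liver lay above every Control liver, although replicate 3, at 121 CPM, was close to the highest Control. Hamp2 rose 4.58-fold, from 86.3 ± 27.0 CPM to 396 ± 226 CPM (SD, n = 6), which is 2.20 on the log2 scale (SE 0.37, edgeR adjusted p = 0.00174). Leaving out each library in turn gave log2 fold changes of 1.97 to 2.38. In RNA from whole liver, a change in the number of cells of a type and a change in the RNA made per cell cannot be told apart.

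The share of Hamp2 in the counts of the pair, which needs no scaling between libraries, was 4.89% to 10.6% in Control livers (median 7.93%) and 20.8% to 58.5% in iTgMir483 livers (median 35.0%). The ranges did not overlap, and the exact 95% binomial intervals, which cover counting error only, were narrow beside the spread between livers (4.55% to 5.26% around the lowest Control share, 57.7% to 59.2% around the highest iTgMir483 share). The share was 29.4 percentage points higher in iTgMir483 (two-sided exact permutation p = 0.00216, the smallest that 6 against 6 libraries allow, and 0.00649 adjusted over 3 ratios).

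The counts of Hamp and Hamp2 added together gave another picture. The sum was 984 to 1330 CPM in Control livers (median 1108) and 525.6 to 1809 CPM in iTgMir483 livers (median 1027). Replicates 3, 5 and 6 of iTgMir483 lay below and replicate 2 above all Controls, so that the groups overlapped. For the sum, iTgMir483 over Control was -0.12 on the log2 scale (SE 0.25, interval of 2 SE either side -0.63 to 0.38, adjusted p = 0.773). The test of the balance between the genes passed, and that of their total did not.

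The values of the pair depend on how reads were assigned. Of 361 windows of 50 bases, the read length, in the longest Hamp transcript, 60 (16.6%) also occur in a Hamp2 transcript, and of 388 such windows in Hamp2, 104 (26.8%) occur in another gene. The Hamp2 exons also overlap Gm44662 on the opposite strand, which had 2 to 37 counts in Control and 11 to 88 in iTgMir483 libraries (log2 fold change 2.06, adjusted p = 0.0250), against 719 to 3129 and 2025 to 9352 counts for Hamp2. The paper names STAR for the gene-level counts but gives no setting for reads that match both genes. The part of shared reads in the values was not tested.

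**Figure D1:**
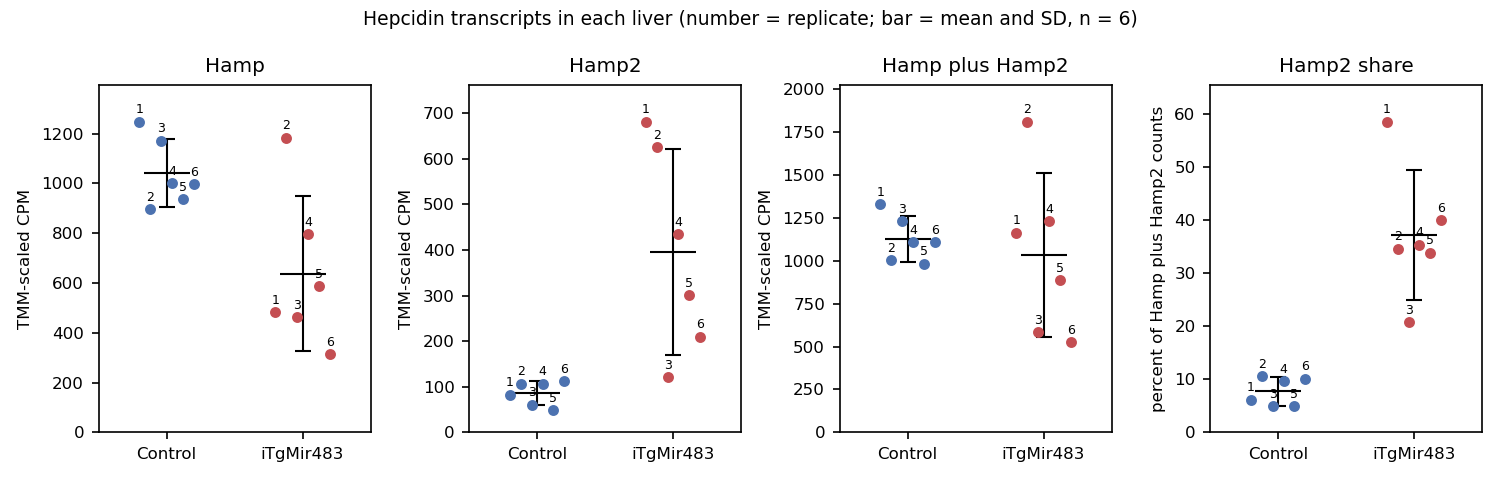
Hamp, Hamp2 and their sum in TMM-scaled CPM, and the Hamp2 share of the pair's counts in percent, with 1 point per liver, the replicate number above it, and the mean and SD of 6 livers as a bar. The Hamp2 values and shares of the groups do not overlap, with shares of at most 10.6% in Control and at least 20.8% in iTgMir483, while for Hamp the iTgMir483 replicate 2 sits among the Controls.

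Bmp6, the ligand that raises hepcidin when iron is replete, was lowly expressed, at 7.40 to 12.1 CPM in Control livers (median 9.85) and 4.02 to 10.1 CPM in iTgMir483 livers (median 7.30). Replicates 3, 5 and 6 of iTgMir483 lay below every Control. Bmp6 was at -0.44 on the log2 scale (SE 0.20, adjusted p = 0.145), and it passed the test only when iTgMir483 replicates 2 and 4 were both left out, a choice made after the data were seen (-0.71, adjusted p = 0.0295). The summed markers of sinusoidal endothelium, the main source of BMP6, were 316 to 381 CPM in Control and 274 to 370 CPM in iTgMir483 livers, and in edgeR 0 of 7 of those markers changed, with 1 at an unadjusted p under 0.05 and 0 changed by DESeq2 or limma-voom.

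Id1, a direct target of BMP-SMAD signalling that is often read beside Hamp, had 12.2 to 20.8 CPM in Control livers (median 14.5) and 14.0 to 38.1 CPM in iTgMir483 livers (median 16.5). Replicates 2 and 5 of iTgMir483, at 38.1 and 32.1 CPM, lay above all Controls and the other 4 within their range. Its difference of 0.51 on the log2 scale (SE 0.25, adjusted p = 0.170) was opposite in sign to that of Bmp6 and Hamp, and was 0.28 without replicate 2. Neither Id1 nor Bmp6 passed the test.

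Within groups, Hamp was set against these partners over the 6 livers, on the log2 scale. In iTgMir483 livers Hamp correlated with Bmp6 at a Pearson r of 0.83 (exact permutation p = 0.0403, 0.161 adjusted over 4 relations) and a Spearman rho of 0.83 (exact p = 0.0583, adjusted 0.117), with r = 0.97 in the 4 livers left without the 2 farthest on Bmp6. In Control livers the same pair gave r = -0.57 (exact p = 0.244, adjusted 0.244) and rho = -0.71 (exact p = 0.136, adjusted 0.181), turning to r = 0.38 without the 2 farthest and to -0.13 without replicate 1 alone. Hamp with Id1 gave r = 0.74 (exact p = 0.101, adjusted 0.203) and rho = 0.89 (exact p = 0.0333, adjusted 0.117) in iTgMir483, with r = 0.77 in 4 livers and 0.43 without replicate 2 alone. In Control livers it gave r = 0.60 (exact p = 0.217, adjusted 0.244) and rho = 0.31 (exact p = 0.564, adjusted 0.564), with r = 0.69 in 4 livers and 0.12 without replicate 1 alone. None of the 4 relations passed after adjustment.

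**Figure D2:**
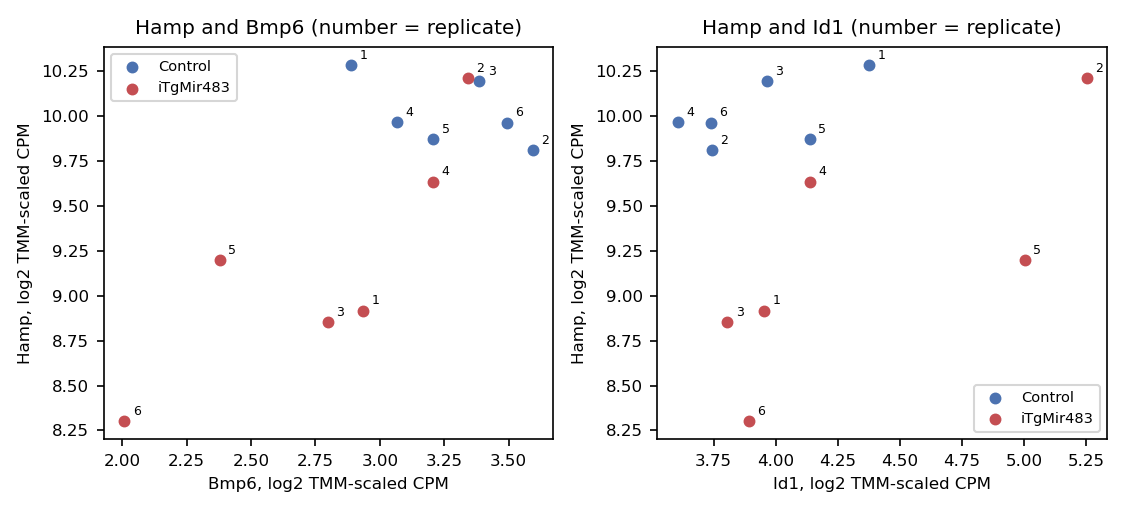
Hamp against Bmp6 (left) and Id1 (right), both axes in log2 TMM-scaled CPM, with 1 point per liver labelled by replicate number. In the iTgMir483 livers the highest Hamp (replicate 2) goes with the highest Bmp6 and Id1 and the lowest Hamp (replicate 6) with the lowest Bmp6, and the correlation with Bmp6 (r = 0.83, exact p = 0.0403) was 0.161 after adjustment.

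The 5 genes whose pattern across the 12 libraries was most like that of Hamp, after centring each group on its mean, were Gm2000 (r = 0.880), Cxcl10 (0.875), Dbr1 (0.868), Fam174a (0.855) and Pfdn5 (0.854), out of 13204 compared. These are descriptions, since the libraries share depth and composition and the highest of many values were taken.

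Tfr2, the hepatocyte sensor of transferrin-bound iron, was at 436 to 542 CPM in Control livers (median 471) and 415 to 885 CPM in iTgMir483 livers (median 532). The value of 885 CPM belonged to iTgMir483 replicate 4, and the other 5 did not exceed 546 CPM. The difference of 0.26 on the log2 scale (SE 0.15, adjusted p = 0.268) became 0.09 without that library (adjusted p = 0.601).

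Trf, which encodes transferrin, the plasma carrier of iron secreted by hepatocytes, had the highest level of the set, at 11004 to 15764 CPM in Control livers (median 13039) and 11965 to 20078 CPM in iTgMir483 livers (median 14484). Replicate 4 of iTgMir483 was again the highest, and the groups overlapped. On the log2 scale iTgMir483 was 0.19 higher (SE 0.16, adjusted p = 0.464), and 0.08 without that library (adjusted p = 0.731). Of 2522 windows of 50 bases in its transcript, 79.8% also occur in Gm20425, an annotated gene over the same exons that was not analysed here.

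Slc40a1, the ferroportin gene and the target on which hepcidin acts, had 122 to 217 CPM in Control livers (median 173) and 126 to 181 CPM in iTgMir483 livers (median 157). All 6 iTgMir483 livers lay within the Control range. Ferroportin mRNA thus differed by less than the spread between livers (-0.13 on the log2 scale, SE 0.14, adjusted p = 0.538).

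Tfrc, transferrin receptor 1, through which cells take up transferrin-bound iron, had 10.5 to 58.7 CPM in Control livers (median 20.9) and 8.44 to 33.4 CPM in iTgMir483 livers (median 20.7). The Control spread came largely from replicate 6, at 58.7 CPM, with the other 5 at 10.5 to 26.1 CPM. The difference of -0.30 on the log2 scale (SE 0.37, adjusted p = 0.605) turned to 0.11 without that library (adjusted p = 0.823).

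Fth1 and Ftl1, the heavy and light chains of ferritin, which stores iron, did not pass the test. Fth1 was at 911 to 1167 CPM in Control livers (median 1017) and 946 to 1450 CPM in iTgMir483 livers (median 1050), 0.10 higher on the log2 scale (SE 0.13, adjusted p = 0.631) and 0.00072 higher without iTgMir483 replicate 1, the highest. Ftl1 was at 1020 to 1512 CPM in Control livers (median 1396) and 1083 to 1329 CPM in iTgMir483 livers (median 1156), at -0.16 on the log2 scale (SE 0.12, adjusted p = 0.368). The groups overlapped for both. Of 919 windows in Ftl1, 90.6% also occur in at least 1 of 17 other annotated genes. Among these, its processed copy Ftl1-ps1 had 15 to 49 and Gm10252 8 to 253 counts per library, against 13559 to 41695 for Ftl1. The part of shared reads in the Ftl1 values was not tested.

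Ratios within a library were tested for these genes. The log2 ratio of Tfrc to Fth1 mRNA was -5.53 ± 0.87 in Control and -5.82 ± 0.86 in iTgMir483 livers (SD, n = 6, exact permutation p = 0.567, adjusted 0.567). The log2 ratio of Fth1 to Ftl1 was -0.37 ± 0.17 and -0.13 ± 0.17, a difference of 0.24 with 2 iTgMir483 livers above all Controls (exact permutation p = 0.0368), which did not pass after adjustment over the 3 ratios (0.0552). With the same adjustment it was past the threshold without Control replicate 5 (0.0325), Control replicate 6 (0.0390) or iTgMir483 replicate 6 (0.0487), and not without any other single library.

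**Figure D3:**
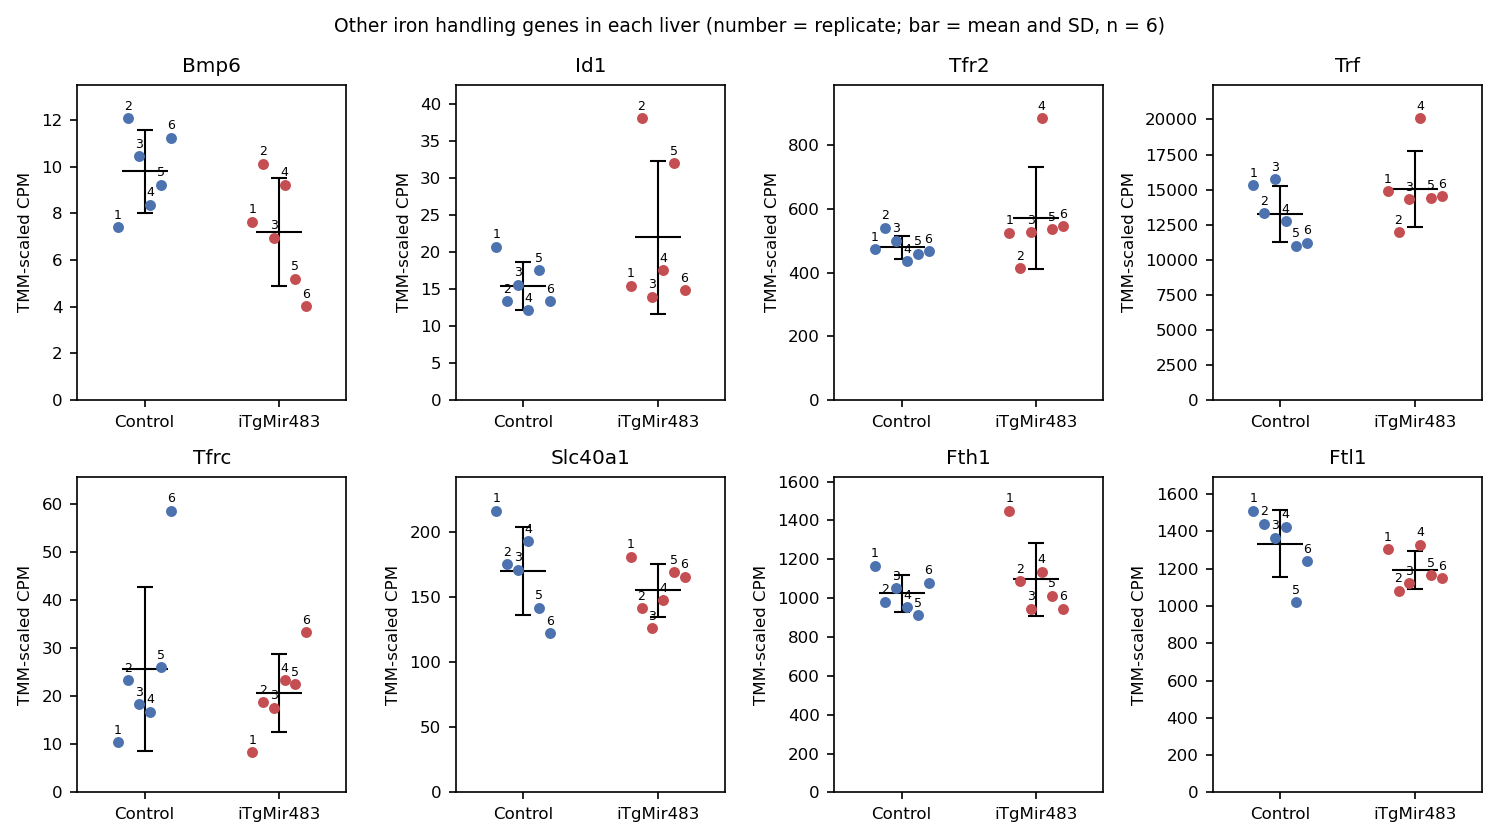
TMM-scaled CPM of the 8 other members, with 1 point per liver, the replicate number above it, and the mean and SD of 6 livers as a bar. In all 8 panels the groups overlap, and single livers stand apart, such as iTgMir483 replicate 4 for Tfr2 (885 CPM) and Control replicate 6 for Tfrc (58.7 CPM).

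Matches to the loop of the hairpins that iron regulatory proteins bind are shown because these proteins control transcripts after they are made. The search was for a C, 5 bases of any kind, then CAGTGN, on the sense strand of the longest annotated UTR of each gene (GENCODE M21, GRCm38). In the 5′ UTR, it matched Fth1, Ftl1 and Slc40a1 once each, and in the 3′ UTR it matched Tfrc 5 times and Fth1 and Id1 once each, against 9.53% of 20873 5′ UTRs and 33.2% of 21669 3′ UTRs with a match. A match is a string of letters, and whether the bases around it pair into a stem was not checked. The sites below are 30 bases each, with the loop letters in capitals.
Fth1 5′ UTR, exon 2, chr19:9982729-9982758, plus strand: ggtttcctgcttcaaCAGTGCttgaacgga
Ftl1 5′ UTR, exon 1, chr7:45459781-45459810, minus strand: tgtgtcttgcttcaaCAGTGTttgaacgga
Slc40a1 5′ UTR, exon 1, chr1:45925467-45925496, minus strand: ttccaacttcagctaCAGTGTtagctaagt
Tfrc 3′ UTR, exon 19, chr16:32631216-32631245, plus strand: gataattatcggaagCAGTGCcttccataa
Tfrc 3′ UTR, exon 19, chr16:32631707-32631736, plus strand: cgtaattatcgggaaCAGTGTttcccataa

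The sequences of the over-expressed microRNA are shown because a seed match in a member would place that member among its possible direct targets. Capitals mark the seed, bases 2 to 8, in the mature sequences from RefSeq (GRCm38.p6), and in the site the bases that pair with it.
mmu-miR-483-3p: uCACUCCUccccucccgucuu
mmu-miR-483-5p: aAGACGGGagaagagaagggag
Tfrc 3′ UTR, exon 19, chr16:32630715-32630743, plus strand: ttggagattgcCCCGTCTccatctgatct
None of the longest 3′ UTRs of the 10 members held a match to the miR-483-3p seed (AGGAGTG), which 10.4% of 21669 genes held. The miR-483-5p seed match (CCCGTCT), in 2.57% of genes, was found once, in Tfrc, whose level did not pass the test. Hamp2, the member that changed, had no match to either in its 3′ UTR of 139 bases.

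Levels can be compared between genes only per length, here as CPM per kilobase of merged annotated exons. Merged exons can be much longer than a single transcript. They held 3469 bases for Fth1 and 9000 for Slc40a1, against 1494 and 3370 bases in the longest protein-coding transcript of each. The order and overlaps given here, in both groups, hold for merged exons only, and other lengths were not tested. In Control livers the order was Trf (3985 ± 602, SD, n = 6), Hamp (2540 ± 336), Ftl1 (996 ± 134), Fth1 (295 ± 27.0), Hamp2 (148 ± 46.3), Tfr2 (111 ± 8.45), Slc40a1 (18.9 ± 3.79), Id1 (13.4 ± 2.79), Tfrc (4.15 ± 2.76) and Bmp6 (2.51 ± 0.456). The neighbours Hamp2 and Tfr2, Slc40a1 and Id1, and Tfrc and Bmp6 overlapped in their Control livers, and the other neighbours did not. In iTgMir483 livers Hamp2 reached 679 ± 387 CPM per kilobase, above Fth1 (316 ± 54.6) by the mean, beside 1556 ± 759 for Hamp.

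**Figure D4:**
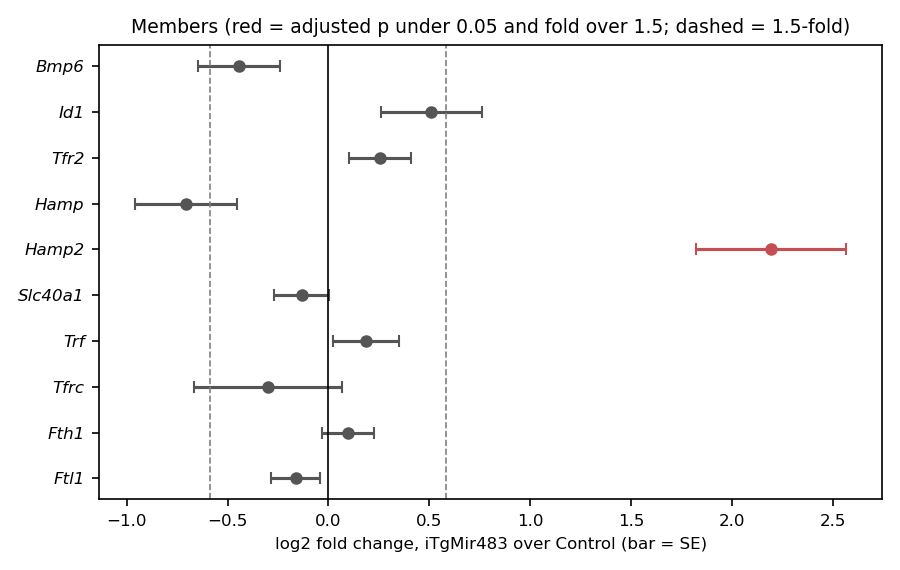
Log2 fold change of each member, iTgMir483 over Control, with its SE as a bar, a solid line at 0 and dashed lines at a 1.5-fold change. Hamp2, at 2.20, is the only gene marked as changed, and Hamp, at -0.71, lies past the lower dashed line with an adjusted p of 0.0658.

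Around these members, a list of 70 further genes of iron and heme biology was read in the same fit, and 67 were tested. Of these, 7 (10.4%) changed, 5 higher and 2 lower, again close to 11.1% of all genes, with a median log2 fold change of -0.01. By adjusted p alone the count was 13, against 18.6% of all genes. Without Control replicate 1 the count was 11 (beside 12.1% of all genes), without both replicate 1 libraries 11 (12.8%), and without Control replicate 4 it was 4 (8.93%).

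Among the 12 genes of iron sensing and BMP-SMAD signalling, 1 changed (8.33%, beside 11.1% of all genes). Acvr2a, a type II receptor for BMP and activin ligands, had 18.7 to 27.4 CPM in Control livers and 12.0 to 18.1 CPM in iTgMir483 livers, without overlap (log2 fold change -0.60, SE 0.12, adjusted p = 0.00383). Its size was near the threshold, and it fell under 1.5-fold with upper-quartile scaling (-0.57) or without Control replicate 2 (-0.58) or 4 (-0.56) or iTgMir483 replicate 3 (-0.57) or 4 (-0.54). Hjv, the BMP co-receptor hemojuvelin, had a log2 fold change of 0.27 (adjusted p = 0.0739), Hfe, the gene of hereditary hemochromatosis, 0.22 (0.117), and Tmprss6, the protease that removes hemojuvelin and lowers hepcidin, -0.01 (0.963).

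Of the 6 BMP-SMAD targets beside Id1, 0 changed by both criteria in edgeR (beside 11.1% of all genes), DESeq2 or limma-voom. In edgeR 3 had an unadjusted p under 0.05, and 1 passed by adjusted p alone, beside 18.6% of all genes. This was Id2, like Id1 an inhibitor of basic helix-loop-helix factors, with 85.3 to 165 CPM in Control and 112 to 199 CPM in iTgMir483 livers (log2 fold change 0.53, adjusted p = 0.0442, overlapping). Id3 was at 0.20 (adjusted p = 0.643) and Atoh8, a transcription factor downstream of BMP signals, at -0.04 (0.920). Smad6 and Smad7, the others under an unadjusted p of 0.05 and named after their values were seen, were at 0.38 (adjusted p = 0.0775) and 0.47 (0.0853). Of the 6 targets, 4 had a positive and 2 a negative log2 fold change, with a median of 0.29.

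Of 6 tested genes of inflammatory input, 2 changed (33.3%, beside 11.1% of all genes), both higher. Socs3, the feedback inhibitor induced by STAT3, had 4.94 to 9.41 CPM in Control and 7.72 to 14.7 CPM in iTgMir483 livers (log2 fold change 0.64, SE 0.19, adjusted p = 0.0338). Il1b, the cytokine interleukin 1 beta, had 1.03 to 4.18 CPM and 1.94 to 16.6 CPM (1.62, SE 0.47, adjusted p = 0.0277), and its highest value was again in iTgMir483 replicate 2. The groups overlapped for both genes, and without Control replicate 4 the adjusted p was 0.0792 for Socs3 and 0.0672 for Il1b. Il1b also lost its call without Control replicate 2 (adjusted p = 0.0585), Control replicate 5 (0.0608) or iTgMir483 replicate 2, where it was at 1.05 (0.0614). Socs3 lost its call when 1 of Control replicates 2 to 6 or iTgMir483 replicates 4 and 6 was left out. Il6ra, Il6st and Stat3, the receptor chains and transducer of interleukin 6, had log2 fold changes of -0.49 (adjusted p = 0.342), 0.04 (0.826) and 0.34 (0.109), and Il6 itself did not pass the filter.

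Among 11 tested genes of uptake and scavenging, 3 changed (27.3%, beside 11.1% of all genes). Lcn2, lipocalin 2, which binds iron-loaded siderophores and is an acute-phase protein, had 7.45 to 22.1 CPM in Control livers and 146, 10.3, 12.7, 694, 67.1 and 46.1 CPM in iTgMir483 livers 1 to 6. Replicates 2 and 3 of iTgMir483 lay in the Control range and replicate 4 far above the others, for a difference of 3.87 on the log2 scale (SE 0.90, adjusted p = 0.00916) that was 2.34 without replicate 4 (adjusted p = 0.0140). Lcn2 missed the threshold with limma-voom (adjusted p = 0.0581). Steap4, a metalloreductase, had 54.6 to 68.5 CPM in Control and 55.3 to 204 CPM in iTgMir483 livers (0.87, SE 0.23, adjusted p = 0.0166).

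Cd163, the macrophage receptor for hemoglobin bound to haptoglobin, fell, with 25.1 to 48.3 CPM in Control livers and 7.26 to 21.5 CPM in iTgMir483 livers, without overlap (log2 fold change -1.36, SE 0.25, adjusted p = 0.00292). Hp and Hpx, the plasma carriers of hemoglobin and heme, had log2 fold changes of 0.32 (adjusted p = 0.488) and 0.53 (0.217), with an SD in iTgMir483 of 2493 CPM around a mean of 4088 CPM for Hp. Lrp1, the receptor for the hemopexin-heme complex, was at 0.32 (adjusted p = 0.361).

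Hmox1, heme oxygenase 1, which breaks down heme and releases its iron, was the only changed gene of 13 in heme synthesis and breakdown (7.69%, beside 11.1% of all genes). It had 17.6 to 27.9 CPM in Control livers and 30.1 to 89.5 CPM in iTgMir483 livers, without overlap, and rose by 1.15 on the log2 scale (SE 0.24, edgeR adjusted p = 0.00556). Cpox, an enzyme of heme synthesis, passed by adjusted p but not by fold (-0.53, adjusted p = 0.00503), while Alas1, the rate-limiting enzyme of heme synthesis in liver, ranged widely (-0.81, SE 0.40, adjusted p = 0.174) and Fech, which inserts iron into the ring, was at 0.21 (0.165).

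Cd163 and Hmox1 are both expressed in macrophages, and macrophage markers differed between the groups. The 7 Kupffer cell markers summed to 259 to 389 CPM in Control and 391 to 1129 CPM in iTgMir483 livers. Of these 7, 6 changed, all higher (4 by limma-voom), beside 8.41% of all genes higher, with none at 0 in any library. Of 5 tested markers of recruited macrophages 3 changed, all higher, beside the same 8.41%, with sums of 24.5 to 51.2 CPM and 68.9 to 95.0 CPM. Most of these sums was Spp1, with means of 25.6 CPM in Control and 63.6 CPM in iTgMir483 livers. The tested markers that did not change were Cd9, at 0.29 on the log2 scale (edgeR adjusted p = 0.290), and Ccr2, at -0.59 (0.108). Cd163 thus went the opposite way to the changed markers of these lists, and the part of macrophage number in either gene was not tested.

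Red cell markers, read because blood left in the liver brings its own iron genes, summed to 118 to 225 CPM in Control and 62.8 to 335 CPM in iTgMir483 livers, and 0 of 4 tested changed in edgeR, DESeq2 or limma-voom, with 0 at an unadjusted p under 0.05. The sums overlapped also for hepatocyte markers (108660 to 155710 and 51719 to 124610 CPM) and for stellate cell markers (86.5 to 127 and 99.4 to 171 CPM). Replicates 1, 2, 4 and 5 of iTgMir483 lay below every Control for hepatocyte markers, and replicates 3, 4, 5 and 6 above every Control for stellate cell markers. Of 5 stellate cell markers, 0 changed in edgeR or limma-voom and 1 in DESeq2 (beside 12.3% of all genes), with 2 at an unadjusted edgeR p under 0.05. T and B cell markers summed to 3.18 to 4.72 and 1.32 to 2.498 CPM, with 1 of 4 passing the filter and that one, Cd79a, not the test (adjusted p = 0.0909).

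In storage, export and mitochondrial iron no gene changed by both criteria in edgeR (beside 11.1% of all genes), DESeq2 or limma-voom. In edgeR 4 genes had an unadjusted p under 0.05 (1, 2 and 1). By adjusted p alone 3 passed (1 of 6, 1 of 4 and 1 of 6), beside 18.6% of all genes. Among 6 genes of storage and its control this was Ireb2, iron regulatory protein 2 (log2 fold change -0.55, adjusted p = 0.00474), named after its value was seen, with 65.7 to 93.3 CPM in Control and 44.8 to 59.4 CPM in iTgMir483 livers. Aco1, iron regulatory protein 1, was at -0.06 (adjusted p = 0.751), and the iron chaperones Pcbp1 and Pcbp2 at -0.14 (0.289) and 0.02 (0.879). Among 4 genes grouped under export it was Slc48a1, a heme transporter (0.33, adjusted p = 0.0121, all 6 iTgMir483 livers above all Controls), while Cp, the ferroxidase ceruloplasmin, was at 0.34 (0.226) and the heme exporter Flvcr1 at 0.04 (0.920).

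Among 6 mitochondrial genes it was Slc25a28, the iron importer mitoferrin 2 (-0.54, adjusted p = 0.0108), also named after its value was seen. Iscu and Nfs1, of iron-sulfur cluster assembly, were at -0.05 (adjusted p = 0.744) and -0.10 (0.473). The 3 tested modifiers of hepcidin, Fgl1, a hepatokine that lowers it (0.69, adjusted p = 0.228), Furin, which cleaves its precursor (-0.11, 0.468), and Gdf15 (0.01, 0.986), did not pass, with 0 at an unadjusted p under 0.05. Blvrb, a biliverdin reductase of heme breakdown, was the last gene past the adjusted p alone (-0.40, 0.0491).

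**Figure D5:**
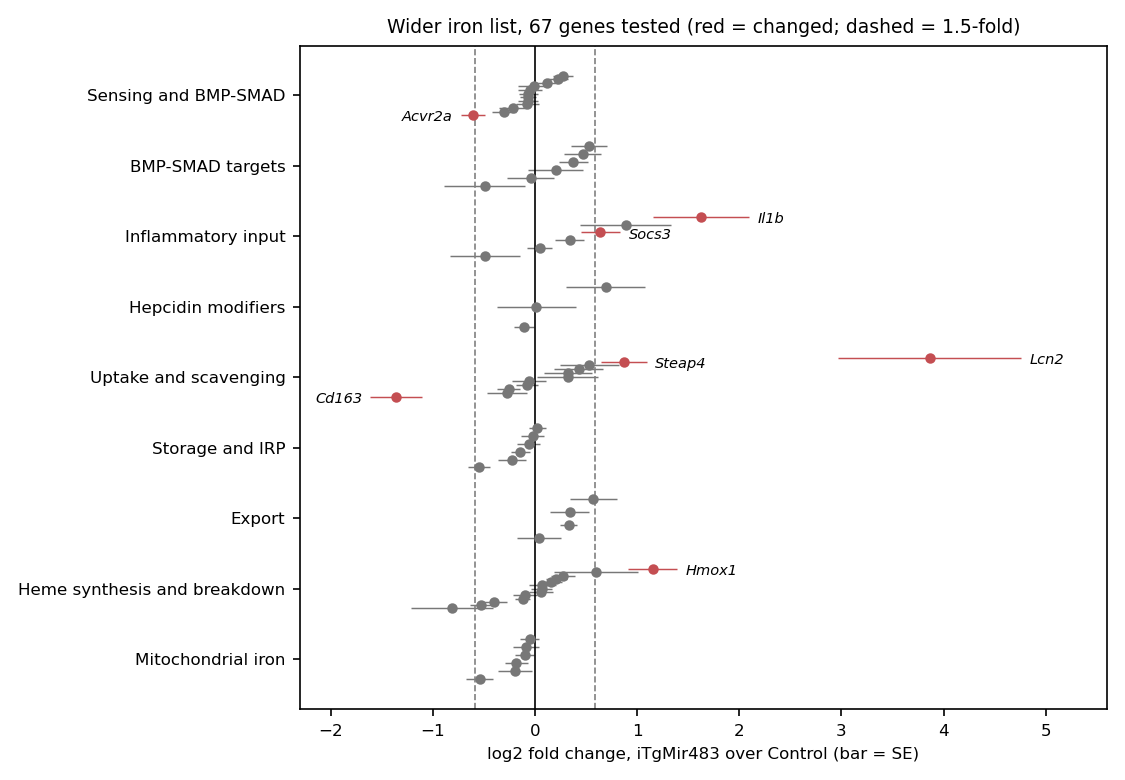
Log2 fold changes of the 67 tested genes of the wider list, iTgMir483 over Control, arranged by role, with SE bars, a solid line at 0 and dashed lines at a 1.5-fold change. The 7 changed genes are named, from Cd163 at -1.36 to Lcn2 at 3.87, and some genes that did not pass also lie past a dashed line, such as Alas1 at -0.81 and Fgl1 at 0.69.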

How the data were processed

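Poly(A) RNA of 12 livers was sequenced as paired reads of 50 bases. The authors used STAR on the GRCm38 genome and deposited raw counts per gene, 1 column per liver, without normalization. Whether the counting used strand is not given in the sources used here. Symbols, exons and UTRs came from GENCODE M21 (same build), which matched 55141 of 55401 identifiers.

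Counts were filtered with filterByExpr, scaled by edgeR's TMM (trimmed mean of M values) and tested with the edgeR quasi-likelihood F-test (edgeR 4.0.16, R 4.3.3), with Benjamini-Hochberg adjustment over 13205 genes. Changed means adjusted p under 0.05 and fold over 1.5. The SE was taken from the F statistic of each log2 fold change. Ratios and correlations used exact permutation tests, two-sided. Each library is 1 mouse, so p-values measure the spread between mice. The step was tested on simulated counts.

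All 10 members were named, with changed genes of the wider list, its 3 most abundant unchanged genes per role (1 is not reported here), and summed cell markers. Members and lists were chosen with earlier results of these data known. Alternatives covered scaling, filters, DESeq2 1.42.0, limma-voom 3.58.1, a replicate block and left-out libraries.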

Additional observations from a re-analysis of the deposited data

Results flagged for a closer look

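In 58 groups of 6 values, the gap between an extreme liver and its nearest neighbour was compared with the whole range of the group (Dixon's ratio, critical value 0.625), and 10 were past it. Chance flags about 1 group in 20, or 2.90 of these. Among the members, Tfrc was high in Control replicate 6 (ratio 0.676, 58.7 CPM against 10.5 to 26.1 CPM), and both Tfr2 (0.721, 885 CPM against 415 to 546 CPM) and Trf (0.637, 20078 CPM against 11965 to 14910 CPM) were high in iTgMir483 replicate 4. The same liver was high for Lcn2 (0.802, 694 CPM against 10.3 to 146 CPM) and for the Kupffer cell markers (0.667, 1129 CPM against 391 to 637 CPM). Il1b was high in iTgMir483 replicate 2 (0.752, 16.6 CPM against 1.94 to 5.57 CPM), and Lcn2 was also high in Control replicate 6 (0.757, 22.1 CPM against 7.45 to 11.01 CPM). Red cell markers were high in Control replicate 4 (0.736, 225 CPM against 118 to 146 CPM), and T and B cell markers in Control replicate 2 (0.847, 4.72 CPM against 3.18 to 3.42 CPM). The total count was high in Control replicate 4 (0.693), the deepest library.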

How the results depend on the processing

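Of the members, Hamp2 kept its call under every alternative that kept its own row, and Tfr2, Slc40a1, Trf, Fth1, Ftl1 and Id1 stayed uncalled under all alternatives run. With the counts of Hamp and Hamp2 added before the fit, the value for the pair was -0.12, opposite in sign to Hamp2. The sum itself, whose alternatives were added after the data were seen, ranged from -0.36 to 0.0098 without 1 library. Tfrc turned sign without Control replicate 6 (-0.49 to 0.11 over the left-out libraries). The number of members changed was 2 with DESeq2, limma-voom or the replicate block (beside 12.3%, 10.7% and 11.6% of all genes), 1 to 2 without 1 library (8.93% to 12.4%), and 3 without iTgMir483 replicates 2 and 4 together (9.43%), also added then. The wider list gave 1 changed gene when tested against a 1.5-fold change (1.71% of all genes), 4 to 11 without 1 library, 11 without both replicate 1 libraries and 13 by adjusted p alone. Over all genes, the test against a 1.5-fold change gave 226 (167 higher, 59 lower), and adjusted p alone 2457, of which 968 were lower. The difference in the log2 ratio of Tfrc to Fth1 was -0.55 to 0.027 without 1 library, and that of Fth1 to Ftl1 0.19 to 0.28. The cause of these shifts was not tested.

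Shared numbers did not mark pairs of livers throughout. Deviations from the group means correlated at 0.034 to 0.440 between livers of the same number, over 0.1 in 2 of 6 pairs. These were replicate 1 (0.440) and replicate 5 (0.167), where a liver also correlated best with its own number. What the livers of these 2 pairs have in common is not given in the sources used here. With the replicate block, Hamp was past the threshold (log2 fold change -0.83, adjusted p = 0.0376), Hamp2 was at 2.03, and Socs3 (adjusted p = 0.0694) and Lcn2 (0.0532) were not past it. Bmp6 (52 to 245 counts per library), Id1 (146 to 534) and Tfrc (116 to 642) were the least deeply counted members.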
